A study of Mus musculus with 2 samples.

Results

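Glycolysis, from glucose uptake to lactate export, and the hypoxia-inducible factor (HIF) pathway were followed as 35 genes in RAW264.7 (a macrophage-like cell line from mouse) with and without knockdown of Lamtor1. Members were chosen by name: every probe whose gene name in the scanner files equals a member was taken, which gave 59 probes for all 35 genes, among 31823 gene names on the array. The set holds 26 glycolysis members (glucose transporters, enzymes of the pathway, regulators and lactate carriers) and 9 HIF pathway members (2 alpha subunits, 3 prolyl hydroxylases and 4 further targets). Of the 35 genes, 34 were measured, meaning that at least 1 array gave a signal well above background, and 32 had such a signal on both. In 13706 measured genes with a RefSeq name, the same values were taken for comparison.

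The study compared 1 array of RNA from cells labelled control with 1 array from cells labelled Lamtor1 knockdown, to ask how the transcription factor TFEB acts when Ragulator is lost. Lamtor1 anchors Ragulator, the scaffold that brings the Rag GTPases and the kinase complex mTORC1 to the lysosome. Both samples carry the same protocol text, in which a mixture of 2 lentiviral shRNA vectors against Lamtor1 was followed by limiting dilution. The sources used here do not say which vector the controls carried, or if either culture grew from 1 clone. With 1 array per group there is no replicate check and no test, every value describes these 2 arrays, and their number limits the precision.

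Each level is a log2 signal after the 75th percentile of its own array was subtracted, differences are knockdown minus control on that scale, and 2-fold means a log2 difference of 1. Of 43020 spots, 53.3% passed the scanner's test against background in the control and 52.9% in the knockdown, and none was saturated. Spots of one probe differed little: over 217 repeated probes, log2 differences between single spots had a median SD of 0.0785, which covers spotting and scanning but not cultures. Lamtor1, the targeted gene, which the files name 2400001E08Rik, had a level of 4.10 in the control and -0.43 in the knockdown, 23.1-fold lower. Of 12 macrophage markers 11 were on the array and all 11 were above background on both arrays, with summed levels of 8.73 and 8.55. Of these 11, 8 (72.7%) lay within 2-fold, against 88.1% of measured genes above background on both arrays. Emr1 was 2.95-fold lower in the knockdown, and Fcgr3 and Cd68 were 2.86-fold and 2.33-fold higher. Of markers of other cells, 2 of 7 fibroblast, 3 of 6 T cell, 1 of 5 B cell and 0 of 5 epithelial genes were above background in the control, and 1, 3, 0 and 0 in the knockdown. The summed levels, control then knockdown, were -3.53 and -4.38 for fibroblast, 1.39 and 1.30 for T cell, -3.98 and -4.84 for B cell and -5.44 and -5.58 for epithelial markers.

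Glycolysis splits glucose into pyruvate and yields ATP without oxygen, and macrophages rely on it heavily when they are activated. HIF1 is a pair of an oxygen-regulated alpha subunit, encoded by Hif1a, and the constant partner Arnt. With oxygen present, the prolyl hydroxylases encoded by the Egln genes mark the alpha subunit for destruction through VHL, and without oxygen it accumulates and switches on glucose transporters, glycolytic enzymes and its own hydroxylases. mTORC1 is known to raise Hif1a translation and with it the glycolytic genes.

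Most members lay within 2-fold between the arrays, as did most measured genes. Among the 34 measured members the median difference was 0.02, against -0.05 over all measured genes. Of these members 30 (88.2%) lay within 2-fold, against 82.6% of all measured genes. In the knockdown 1 member (2.94%) was at least 2-fold higher, against 9.06% of all measured genes. In the lower direction the count was 3 members (8.82%), against 8.37%. The higher gene was the hexokinase Hk3, and the lower ones were Egln3, Egln1 and Ankrd37. With dim genes taken at a lower bound of their fold, these counts stayed at 1 and 3, against 7.79% and 6.87% of all measured genes. Among the 32 members above background on both arrays, only Hk3 was higher and only Ankrd37 lower, against 6.36% and 5.52% of such genes. Of all genes above background on both arrays, 88.1% lay within 2-fold. Epas1 counts here as within 2-fold by its brightest probe, although its other probes were far past 2-fold.

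**Figure D1:**
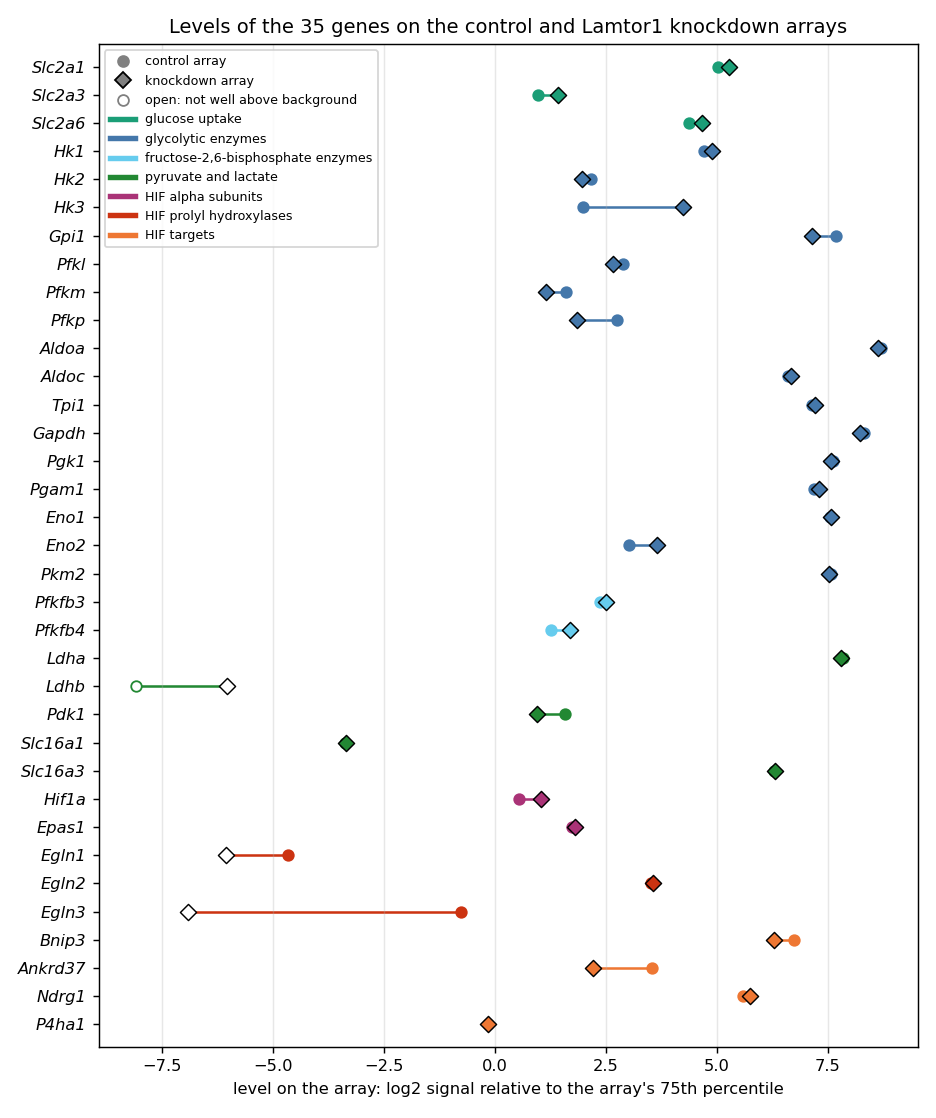
Level of each of the 35 genes (rows) in the control (circles) and the knockdown (diamonds), as log2 signal relative to the 75th percentile of the array, by the brightest probe of the gene. Open symbols are not well above background. Hk3 moves from 1.98 to 4.24 and Egln3 from -0.76 to -6.92, while most other pairs of symbols nearly touch.

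Set against each other, glycolysis and HIF pathway members had nearly the same median by their brightest probes. The 25 measured glycolysis members had a median of 0.02 and ran from -0.89 to 2.26, with 24 (96.0%) within 2-fold. All 25 were above background on both arrays, and 88.1% of all such genes lay within 2-fold. Over all measured genes, 82.6% lay within 2-fold and 8.37% were at least 2-fold lower. The 9 HIF pathway members had a median of -0.01 and ran from -6.16 to 0.48, with 6 (66.7%) within 2-fold and the other 3 (33.3%) all lower. This reads Epas1 at 0.07 from its brightest probe, while its other probes gave 3.97 and 4.10. With the median over probes Epas1 was 15.7-fold higher and the HIF pathway median was -0.19. Of the 3 lower genes, Egln3 and Egln1 were dim in the knockdown, and the 7 HIF pathway members above background on both arrays had a median of 0.03. These counts rest on few genes and the groups were not tested against each other.

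**Figure D2:**
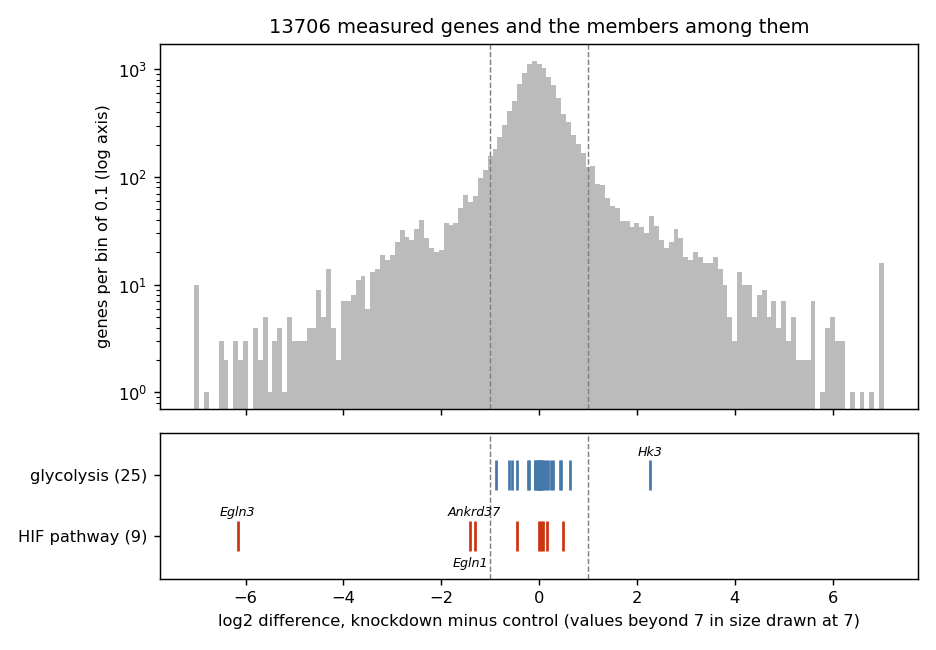
Histogram of the log2 difference (knockdown minus control) over the 13706 measured genes, on a log axis of genes per bin, with the 25 measured glycolysis and 9 HIF pathway members as ticks below. Dashed lines mark 2-fold. The glycolysis ticks crowd around 0 with Hk3 alone at 2.26, and the HIF pathway ticks reach to -6.16 at Egln3.

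Glucose enters through facilitative transporters, and the 3 transporter genes were slightly higher in the knockdown. Slc2a1, the widely expressed GLUT1, had a control signal of 38233 and a knockdown signal of 48772, a difference of 0.25 after scaling. Slc2a3, the high-affinity GLUT3, had signals of 2281 and 3336 and a difference of 0.45. Slc2a6, a transporter of the lysosomal membrane that macrophages express when activated, had signals of 24382 and 31714 and a difference of 0.28, and its other probe gave 0.27. None reached 2-fold.

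Hexokinases trap glucose as glucose 6-phosphate, and the 3 isozymes on the array gave different values. Hk3, the isozyme of myeloid cells, had a control signal of 4622 and a knockdown signal of 23769. Its level was 1.98 and 4.24, a difference of 2.26 or 4.80-fold, and it ranked 498 from the highest among the 13706 measured genes. In bulk RNA, more cells with a transcript and more transcript per cell cannot be told apart. The Hk3 value rests on 1 probe, which lies on the minus strand at chr13:55107900-55107959 (mm9), and its sequence is shown because the largest difference among the enzymes rests on it.
Hk3 probe A_52_P586004: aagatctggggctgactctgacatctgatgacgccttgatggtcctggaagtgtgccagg
Hk1, the housekeeping isozyme, had a difference of 0.18 by its brightest probe and -0.11 by the other. Hk2, the isozyme most often described as inducible by HIF1, had signals of 5235 and 4845 and a difference of -0.21. Thus a single hexokinase gene was higher by more than 2-fold, and the other two lay within 0.21 of 0.

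The next steps, isomerization and the committed phosphorylation, were lower in the knockdown by less than 2-fold. Gpi1, glucose-6-phosphate isomerase, had 3 probes offset by a few bases on chromosome 7, and they gave differences of -0.37, -0.48 and -0.55. Phosphofructokinase makes the committed step, and its 3 subunit genes were all below 0. Pfkp, the platelet-type subunit, had signals of 7811 and 4508 and a difference of -0.89, and its second probe gave -0.96, so that both probes of this gene lay just short of 2-fold. Pfkm, the muscle-type subunit, was spotted 10 times per array. Its spots ran from 3437 to 3695 in the control and from 2649 to 2902 in the knockdown, and the spot values did not overlap. The mean levels were 1.59 ± 0.032 and 1.14 ± 0.036 (SD over 10 spots, which are repeats on 1 array and not replicates of the cells), a difference of -0.46 or 1.37-fold. Pfkl, the liver-type subunit, had a difference of -0.23.

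Pfkfb3 and Pfkfb4 encode the enzymes that make and break the sugar bisphosphate that activates phosphofructokinase. Pfkfb3 had a difference of 0.14 by its brightest probe and -0.10 by the other. Pfkfb4 had signals of 2819 and 4049 and a difference of 0.42, while its second probe was not well above background on either array.

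From aldolase to pyruvate kinase nearly every gene lay within 0.2 of 0. The differences were -0.08 for Aldoa and 0.04 for Aldoc, both aldolases, and 0.06 for the triose isomerase gene Tpi1. They were -0.03 for the phosphoglycerate kinase gene Pgk1, 0.11 for the mutase gene Pgam1, 0.02 for the enolase gene Eno1 and -0.03 for Pkm2, the name the files give to the muscle-type pyruvate kinase gene Pkm. Gapdh, the dehydrogenase often used as a reference gene, had 7 probes with differences from -0.19 to 0.16. All 7 Gapdh probes also list an accession of another RefSeq gene, and 1 of them is placed on chromosome 8 by the files, so that signal from related loci cannot be separated there. The exception in this stretch was Eno2, the enolase best known from neurons and a described HIF1 target, with signals of 9543 and 15867 and a difference of 0.63. The sign of values this close to 0 depends on the scaling: with array median scaling or cyclic loess, Aldoa, Gapdh, Pgk1, Pkm2, Ldha and P4ha1 turned from below to above 0, and with quantile normalization Pgk1, Pkm2, Ldha and P4ha1 did. Eno1, Slc16a1, Slc16a3 and Egln2 turned below 0 when the percentile was taken over probes above background on both arrays, and Slc16a1 also with normexp.

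At the end of the pathway, pyruvate becomes lactate or enters mitochondria. Ldha, the lactate dehydrogenase subunit that favours lactate, had 3 probes with differences of -0.03, -0.05 and -0.10. Ldhb, the subunit of oxidative tissues, was not well above background on either array, so it has no fold. Slc16a3, the lactate exporter MCT4, had a difference of 0.02 at both of its probes, and Slc16a1, the carrier MCT1, had one of 0.03 at a dim signal of 112 and 123. Pdk1, the kinase that blocks pyruvate dehydrogenase and a described HIF1 target, had signals of 3482 and 2425 and a difference of -0.62. Both lactate carriers and Ldha thus lay within 0.1 of 0, while Pdk1 was 1.54-fold lower.

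In the HIF pathway itself, Hif1a, the alpha subunit of HIF1, had signals of 1716 and 2558, a difference of 0.48 or 1.39-fold. Epas1, which encodes the alpha subunit of HIF2, gave very different values at its 3 probes. Probe A_51_P250058, at chr17:87232615-87232674 (mm9, plus strand), had a control signal of 364 and a knockdown signal of 6118, a difference of 3.97 or 15.7-fold. Probe A_55_P2053988, at chr17:87230587-87230646, had signals of 43.3 and 797, a difference of 4.10 or 17.2-fold. Probe A_55_P2077448, at chr17:87230678-87230737, had signals of 3906 and 4394, a difference of 0.07. The last is the brightest by the mean of both arrays and so stands for the gene in the counts, although it starts only 31 bases past the end of the probe that was 17.2-fold higher. All 3 were well above background on both arrays.

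The middle stretch (bases 16 to 45) of each Epas1 probe is shown to compare them, with the run of C and T in capitals where it has 10 or more bases.
A_51_P250058: aacttcatgaccattactgcattgtcaaat
A_55_P2053988: tatctgacatgctcactttattatccatgt
A_55_P2077448: tttataagaTTTCCCCCTCCCTCCCTCCCT
Over the whole probe, the unbroken run of C and T had 22 bases in A_55_P2077448 and at most 5 in the other two. A run of 22 or more occurred in 39 of 39429 probes (0.0989%). Of these 39 probes 30, the Epas1 probe included, were above background on both arrays, and all 30 lay within 2-fold. Of measured genes above background on both arrays, 88.1% lay within 2-fold. The part of this sequence in the Epas1 result was not tested. Probes of one gene rarely differed as much: the range over the Epas1 probes was 4.03, and 4 of 3233 measured genes that had several bright probes, above background on each array (0.124%), Epas1 included, had a range at least that wide. The median range of those genes was 0.16. Among the 13 members with several such probes the median range was 0.18, near that of all such genes. Of these 13 members, 12 had a range under 0.5, and 10 had all probes on the same side of 0, the exceptions being Gapdh, Hk1 and Pfkfb3.

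**Figure D3:**
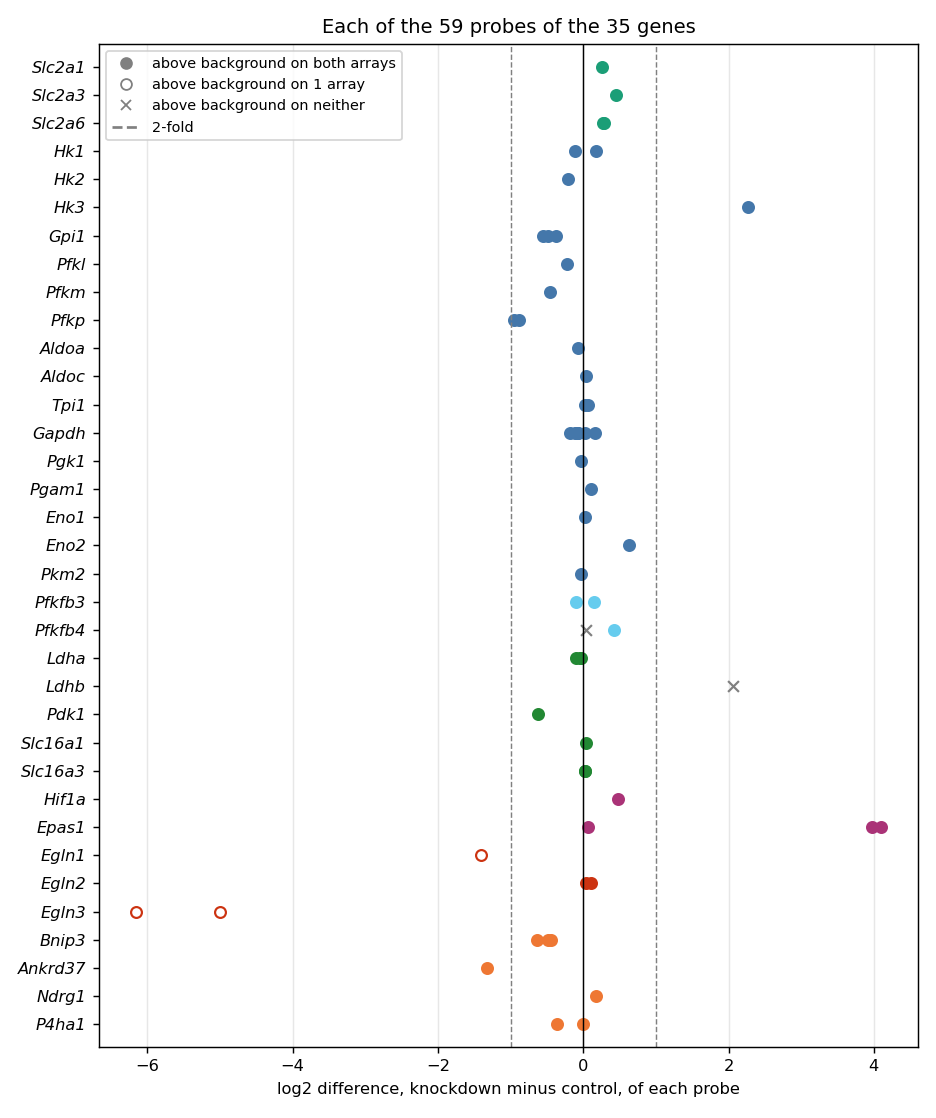
Log2 difference (knockdown minus control) of each of the 59 probes, 1 row per gene. Filled circles are above background on both arrays, open circles on 1 array and crosses on neither, and dashed lines mark 2-fold. Probes of a gene mostly overlap, while Epas1 has 1 probe at 0.07 and the other two at 3.97 and 4.10.

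The prolyl hydroxylases, which sense oxygen, differed among themselves. Egln3, the isozyme PHD3, had a control signal of 692 and a knockdown signal of 10.4 by its brightest probe, and 393 and 13.2 by the other. Both Egln3 probes were well above background in the control and not in the knockdown. Against the dimmest probe that still passed on the knockdown array, which bounds a fold from below, Egln3 was at least 36.7-fold lower. At its plain difference of -6.16 it ranked 19 from the lowest of 13706 measured genes, and with normexp background correction the fold was 11.8, which is not a bound. Egln1, the isozyme PHD2 that does most HIF hydroxylation, was dim on both arrays at its only probe, with signals of 46.5 and 18.8. It was at least 2.47-fold lower by the bound, but with normexp the difference was -0.44, under 2-fold. Egln2, the isozyme PHD1, had signals of 13432 and 14735 and differences of 0.03 and 0.10 at its 2 probes.

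Of the 4 other HIF targets, Ankrd37, an ankyrin repeat gene described as a HIF1 target, had a control signal of 13537 and a knockdown signal of 5811, a difference of -1.32 or 2.50-fold lower. Bnip3, a mitophagy receptor induced by hypoxia, had 3 probes with differences of -0.45, -0.48 and -0.64. Ndrg1, a stress-responsive gene, had a difference of 0.17. P4ha1, a subunit of the enzyme that hydroxylates collagen, had differences of -0.01 and -0.36 at its 2 probes. The targets therefore did not share a direction, with Ankrd37 past 2-fold and Bnip3 1.37-fold lower by its brightest probe.

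HIF binds DNA at the core letters ACGTG or GCGTG, and their presence was counted on both strands of promoter windows from 250 bases before to 50 after each start (RefSeq, GRCm38.p6), where 46 windows matched 32 of the 35 genes. Slc2a3, Epas1 and Ndrg1 had no window. Windows of the same gene can overlap, as for Eno1, Aldoa and Pfkm, so the shares count some stretches more than once. At least 1 core was present in 38 of the 46 windows (82.6%), in 30 of 38 glycolysis windows (78.9%) and in 8 of 8 HIF pathway windows, against 43.8% of all 32851 windows. The core contains CG, and the members' windows were richer in it: their median held 20.5 CG pairs and 62.8% G and C, against 7 pairs and 52.7% over all windows. The part of base composition in these shares was not tested. The E-box CACGTG, the core letters of sites that TFEB binds, overlaps ACGTG and was present in 7 of 46 windows (15.2%), against 7.15% of all. The window of Ldha with the most cores held 7, those of Bnip3 and Ankrd37 held 5 and 4, and those of Hk3 and Egln3 held 1 each. Each strand was counted, so a CACGTG counts as 2 cores. The Ldha window held 2 CACGTG and that of Bnip3 held 1. No relation between the number of cores and the difference was tested.

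The 250 bases before the start are shown for the enzyme gene that was higher and for the lower genes Egln3 and Ankrd37, each on the minus strand and with the cores of either strand in capitals. They lie at chr13:55021386-55021635 (Hk3), chr12:54203875-54204124 (Egln3) and chr8:45999851-46000100 (Ankrd37) in GRCm38.p6.
Hk3 promoter: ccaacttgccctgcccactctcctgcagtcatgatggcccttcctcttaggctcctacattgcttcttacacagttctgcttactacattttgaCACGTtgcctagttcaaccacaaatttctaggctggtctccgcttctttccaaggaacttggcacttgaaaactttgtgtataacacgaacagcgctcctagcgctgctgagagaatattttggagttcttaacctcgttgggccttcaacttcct
Egln3 promoter: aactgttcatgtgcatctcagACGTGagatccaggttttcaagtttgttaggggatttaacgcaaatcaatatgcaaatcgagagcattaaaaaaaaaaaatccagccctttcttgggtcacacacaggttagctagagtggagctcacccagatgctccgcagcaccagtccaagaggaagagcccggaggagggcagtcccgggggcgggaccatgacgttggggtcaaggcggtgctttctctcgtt
Ankrd37 promoter: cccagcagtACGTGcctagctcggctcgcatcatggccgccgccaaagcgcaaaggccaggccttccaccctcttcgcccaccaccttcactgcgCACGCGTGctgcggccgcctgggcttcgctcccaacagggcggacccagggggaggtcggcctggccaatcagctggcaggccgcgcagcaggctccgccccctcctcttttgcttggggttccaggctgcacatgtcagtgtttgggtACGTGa
In this stretch Hk3 and Egln3 have 1 ACGTG each, and Ankrd37 has 2 ACGTG and 2 overlapping GCGTG on opposite strands. A match describes letters only and shows no binding.

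Genes of the same pathways outside the set were read from 4 lists, chosen with earlier results of these data known. Of 51 other glycolysis genes 35 were measured, with a median of -0.04, 2 at least 2-fold higher (5.71%) and 3 lower (8.57%), near the background of all measured genes. Slc2a4, the insulin-responsive GLUT4, was 6.40-fold higher, from a level of -4.48 to -1.80 (3.42-fold with normexp). Pgm5, a relative of phosphoglucomutase, was 5.45-fold higher. Slc2a12, another glucose transporter, was 2.74-fold lower. The enolase gene Eno3 was 2.02-fold lower, and Eno4, dim in the knockdown, was at least 1.22-fold lower. Eno3 fell short of 2-fold with normexp, median scaling and cyclic loess. None of the 8 measured pentose phosphate genes reached 2-fold, and their median was -0.14. All 8 were above background on both arrays, and 88.1% of all such genes lay within 2-fold.

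Of 23 other HIF regulators 22 were measured, with a median of -0.09. P4htm, a transmembrane prolyl hydroxylase, was 2.24-fold higher but under 2-fold with normexp, at a difference of 0.48. Hif3a, a further alpha subunit, was dim in the knockdown and by the bound at least 2.03-fold lower, but under 2-fold with normexp and with the median over its probes. Siah2, a ubiquitin ligase that degrades prolyl hydroxylases, was 2.17-fold lower. Arnt, the partner of the alpha subunits, had differences of 0.09 and 0.91 at its 2 probes, Vhl of -0.21 and Hif1an, which encodes the asparagine hydroxylase FIH, of 0.55.

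Other HIF target genes lay past 2-fold in both directions. Their list was chosen with earlier results of these data known, so its shares describe the listed genes and not HIF targets at large. Of 50 listed genes 45 were measured, 10 were at least 2-fold higher (22.2%, against 9.06% of all measured genes) and 7 lower (15.6%, against 8.37%), with a median of -0.07. Among the higher genes were Cxcr4, a chemokine receptor, 9.93-fold, Rora, a nuclear receptor, 8.97-fold, the repressor gene Bhlhe41 3.63-fold, and Hilpda, a lipid droplet protein, 3.32-fold. Both Hilpda probes, filed under the older name 2310016C08Rik, gave 1.73 and 1.75. Epo, which encodes erythropoietin, was too dim in the control for more than a bound of at least 2.48-fold higher, and it was 1.62-fold with normexp. With normexp Cxcr4 was 6.04-fold and Rora 3.76-fold higher.

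Among the lower targets, Flt1, which encodes a VEGF receptor, lay at least 81.9-fold below the control. Cp, the copper-carrying ferroxidase ceruloplasmin, was at least 21.6-fold lower, and Zfp395 at least 7.25-fold. In the knockdown none of the 3 passed the test against background, so these folds are bounds, and their normexp folds were 26.6, 5.94 and 3.33. For Zfp395 the probe that was brightest on the knockdown array alone lay within 2-fold. Stc2, a secreted glycoprotein gene, was 2.95-fold lower and Angptl4, an inhibitor of lipoprotein lipase, 2.87-fold lower. Vegfa and Adm, both widely used as readouts of hypoxia, had differences of -0.52 and 0.65 and were named after their values were seen. The lists hold genes with other known inducers as well, and the counts carry no test.

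**Figure D4:**
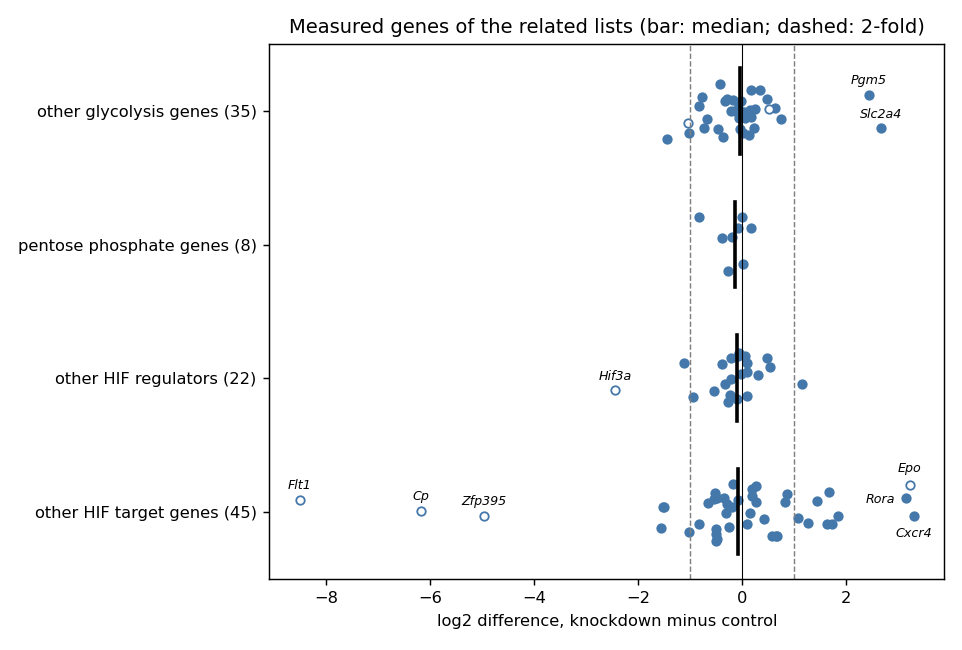
Log2 difference (knockdown minus control) of measured genes in the 4 related lists, 1 point per gene by its brightest probe, spread vertically at random. Open points are not well above background on 1 array and are drawn at their plain difference, black bars are list medians and dashed lines mark 2-fold. All medians lie between -0.14 and -0.04, while the HIF target list spreads from -8.51 for Flt1 to 3.31 for Cxcr4.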

How the data were processed

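Total RNA (200 ng per sample, per the labels' protocols) was labelled with Cy3 and hybridised to 1-colour Agilent arrays of 60-base probes. Agilent Feature Extraction 10.7.3.1 produced the scanner files, per the submitters' processing notes. The authors' processed intensity was detrended within the array, per the file headers, without local background correction and with surrogates for signals not above background, and positions are in mm9. The deposited value table holds the same intensity, linear and uncentred, rounded to 3 significant digits (scanner over table values 0.995 to 1.005), with column medians of 28.0 for the control and 27.8 for the knockdown.

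From these, each spot's log2 processed intensity was set against the 75th percentile of all spots of its array other than controls. Outlier spots (162 and 177) were left out, spots of a probe were averaged, and the probe with the highest mean level stood for its gene. The probe had to be well above background on at least 1 array in over 50% of its spots. A gene above background on 1 array has a bound: the bright level against the higher of the lowest level above background on the other array and its own level there. Of 17514 measured gene names, 13706 are RefSeq symbols or synonyms (GRCm38.p6, names only) and form the comparison set. All member genes are named, with Lamtor1, and from each related list up to 5 genes per direction at 2-fold or more with the largest differences. The members and lists were chosen with earlier results of these data known. Alternatives used limma 3.58.1 in R 4.3.3 (normexp with offset 50 on mean and background signals, quantile, cyclic loess). Others were median scaling, a percentile over probes above background, the median over probes, filters on dim probes, dim genes by their bound, outlier spots kept, and the deposited table. Taking the brightest probe from either array alone was added after seeing the data. The calculation was run on simulated data with known shifts in genes above background, as a check of the code. That run did not examine the bounds or variation between cultures. No test was made, since each group has 1 array.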

Additional observations from a re-analysis of the deposited data

How the results depend on the processing

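No paired analysis was possible because each group has 1 array. The calls on Hk3, Egln3 and Ankrd37 kept their side of 2-fold under every alternative that gave them a value (Egln3 had none where genes had to be above background on both arrays, nor had Egln1), and no member past 2-fold changed sign. Egln1 fell under 2-fold with normexp. The count of members at least 2-fold higher was 2 with the median over probes, and 2 with the brightest probe taken from the knockdown array alone (chosen after seeing the data), where Epas1 at 3.97 joined Hk3. It was also 2 without a filter on dim probes, where Ldhb entered. The count of lower members was 1 where genes had to be above background on both arrays. The median difference over members was 0.11 with array median scaling, quantile and cyclic loess normalization. For glycolysis members it was 0.11, 0.12 and 0.14 in that order. For HIF pathway members it was 0.08 with median scaling and -0.19 with the median over probes. The HIF pathway minus glycolysis median was -0.13 with quantile normalization and -0.21 with the median over probes, against -0.03. The count of other glycolysis genes at least 2-fold lower was 1 with normexp, median scaling and cyclic loess. That of other HIF targets was 4 where genes had to be above background on both arrays, since fewer genes were counted. Over all measured genes at least 2-fold apart, 787 were higher and 607 lower with normexp, against 1242 and 1147.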

Other observations

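The 8 measured pentose phosphate genes, which draw on the first product of hexokinase to make NADPH and ribose, all lay within 2-fold. So did 88.1% of measured genes above background on both arrays. G6pdx, the entry enzyme, had a difference of 0.03, Pgd of -0.19, the transketolase gene Tkt of -0.27 and Taldo1 of 0.18. H6pd, the form of the entry enzyme in the endoplasmic reticulum, was the lowest of the 8 measured genes at -0.82. Of the pyruvate dehydrogenase kinases outside the set, Pdk2 had differences of 0.76 and 0.25 at its 2 probes and Pdk3 of -0.82, opposite in sign, and Pdk4 was not well above background on either array. The mitochondrial pyruvate carrier genes, filed as Brp44l and Brp44, had differences of 0.24 and -0.08. Bsg, the chaperone of the lactate carriers, had a difference of -0.46. Genes in this paragraph were named after their values were seen.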
